A study of Mus musculus with 9 samples.

Results

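Antioxidant enzymes are described here across spinal cords of mice with and without experimental autoimmune encephalomyelitis (EAE), a mouse model of multiple sclerosis in which immune cells invade brain and cord. The set held 10 genes, Hmox1, Nqo1, Sod1, Sod2, Gpx1, Cat, Prdx1, Gsr, Gclm and Txnrd1, and its members were taken by gene symbol from the array annotation. For 9 of the 10 genes at least 1 probe set carried that symbol alone, which gave 11 of the 12488 probe sets on the array. Both probe sets of Prdx1 are also annotated to the pseudogene Gm21399, so their signal could not be assigned to Prdx1 and they are given apart. All 11 member probe sets were tested, since each lay above the floor of 19.3 signal units on at least 3 of the 9 arrays. At a limma adjusted p of 0.05, 0 of the 11 passed in placebo-treated EAE against naive cord (0.936% of the 12177 tested probe sets did), 0 in calcitriol-treated against placebo-treated EAE (0% did) and 0 in calcitriol-treated EAE against naive cord (2% did). Hmox1 and Gsr came nearest to the threshold.

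These enzymes remove reactive oxygen species in steps. Superoxide dismutases turn superoxide into hydrogen peroxide, which catalase, glutathione peroxidases and peroxiredoxins reduce to water, and glutathione reductase and thioredoxin reductase restore the electron donors at the expense of NADPH. Many genes of this kind, among them Hmox1, Nqo1, Gclm and Txnrd1, are textbook targets of the transcription factor NRF2, which binds antioxidant response elements after oxidative or electrophilic stress. In inflamed nervous tissue, heme oxygenase 1 is known from activated microglia, macrophages and astrocytes.

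Total RNA of B10.PL mouse spinal cord was hybridised to 1-colour oligonucleotide arrays. The groups were EAE mice that received calcitriol (replicates 6, 7 and 8), the active vitamin D hormone, at 200 ng, EAE mice given placebo (replicates 1, 5 and 10), and naive mice (replicates 2, 3 and 4). Cords of the EAE mice were collected 6 h after treatment, and the labels give no treatment for the naive mice and no age for any group. For replicate 6 the title says D2 and the description D3. Nothing in the labels states that each replicate is its own animal, and p-values therefore reflect only the spread among these samples, which may be technical.

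Values are deposited signals scaled to a common trimmed mean of 192.8 units, and differences are on the log2 scale from 1 limma fit over all 9 arrays. Median deposited signals ran from 110.9 to 135.8 units over the arrays. Naive replicate 2 stood apart. Log2 signals of naive arrays correlated across probe sets at 0.773 to 0.879, lowest for pairs with replicate 2, against 0.902 to 0.941 between calcitriol arrays and 0.923 to 0.938 between placebo arrays. The 5′ minus 3′ log2 difference of the beta-actin control probe sets was lower on all EAE arrays (-0.83 to -0.52 with calcitriol, -1.11 to -0.42 with placebo) than on naive arrays (-0.25 to 0.12), and its part in the results below was not tested. Markers of the tissue were present: 0 of 10 neuron, 0 of 7 astrocyte and 0 of 8 oligodendrocyte markers were at the floor throughout any group. Precision is limited by having 3 arrays in each group.

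Promoters of the members were searched for the core of the antioxidant response element, TGACNNNGC, on both strands in the 250 bases before the annotated start site. The sequences are from RefSeq on build GRCm38.p6, with 10 start sites for 8 of the 10 genes and no entry for Hmox1 and Gsr. A match was found in 4 of the 10 windows (Gclm, Prdx1, Sod1 and 1 of 3 windows of Txnrd1), and 10.2% of all 32851 promoter windows hold one. In the Prdx1 window it overlaps an AP-1 motif (TGANTCA, present in 6.75% of all windows). The windows of Gclm and Nqo1 are shown, and of the 3 Txnrd1 windows only the 1 with a match. These genes were picked because Txnrd1 separated EAE from naive arrays whereas Gclm and Nqo1, regarded as regulated by the same factor, did not. Capitals mark the match, which lies on the opposite strand and so appears as the reverse complement of the core, and a match of letters is not evidence of binding. The search covered only these 250 bases, so the lack of a match says nothing about elements farther away.
Txnrd1, chr10:82858956-82859205, plus strand: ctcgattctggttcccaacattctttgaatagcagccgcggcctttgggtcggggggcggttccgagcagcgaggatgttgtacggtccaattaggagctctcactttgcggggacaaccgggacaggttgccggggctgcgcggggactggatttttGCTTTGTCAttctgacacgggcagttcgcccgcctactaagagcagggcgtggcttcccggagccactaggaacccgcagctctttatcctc
Gclm, chr3:122245307-122245556, plus strand: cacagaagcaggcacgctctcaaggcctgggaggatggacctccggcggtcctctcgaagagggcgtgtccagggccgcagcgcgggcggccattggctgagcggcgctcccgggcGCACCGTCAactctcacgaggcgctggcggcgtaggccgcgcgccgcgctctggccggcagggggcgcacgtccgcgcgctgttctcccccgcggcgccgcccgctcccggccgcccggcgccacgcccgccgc
Nqo1, chr8:107403206-107403455, minus strand, with no match in the window: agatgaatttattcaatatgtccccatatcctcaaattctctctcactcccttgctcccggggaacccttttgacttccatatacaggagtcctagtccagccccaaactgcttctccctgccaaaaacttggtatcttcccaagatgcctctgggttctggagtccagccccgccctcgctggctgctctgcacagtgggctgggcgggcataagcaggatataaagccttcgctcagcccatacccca
The match begins 92 bases before the start site in Txnrd1 and 134 bases before it in Gclm.

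Hmox1 encodes heme oxygenase 1, which splits heme into biliverdin, iron and carbon monoxide. Its scaled signal was 888, 742 and 1234 on calcitriol replicates 6, 7 and 8, against 643, 703 and 589 on placebo replicates 1, 5 and 10, and 548, 452 and 533 on naive replicates 2, 3 and 4. The 3 groups did not overlap: every calcitriol array lay above every placebo array, and every placebo array above every naive array. The mean was 955 ± 252 with calcitriol, 645 ± 57.1 with placebo and 511 ± 51.7 in naive cord (SD, n = 3 each).

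Calcitriol-treated EAE exceeded naive cord in Hmox1 by 0.88 ± 0.19 log2 (SE, 1.83-fold), with a limma adjusted p of 0.0533 that just missed the threshold of 0.05. Without naive replicate 2 the difference was 0.93 log2 (limma adjusted p = 0.0367) and without calcitriol replicate 7 it was 1.04 log2 (limma adjusted p = 0.0343), both past the threshold. Over 19 alternative settings the difference stayed between 0.67 and 1.04 log2, with limma adjusted p-values from 0.00655 to 0.183, and it passed in 7 of them. The other comparisons were further from it. Placebo-treated EAE exceeded naive cord by 0.34 ± 0.19 log2 (SE, limma adjusted p = 0.672), and calcitriol exceeded placebo by 0.54 ± 0.19 log2 (SE, 1.45-fold, limma adjusted p = 1). Without calcitriol replicate 8, calcitriol exceeded placebo by 0.34 log2.

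Myeloid markers in sum, like Hmox1, were higher on all EAE arrays than on naive arrays, but not every marker followed. The summed signal of 15 monocyte, macrophage and microglia markers was 5129 to 7658 units on calcitriol arrays, 4372 to 5564 on placebo arrays and 2766 to 2826 on naive arrays. Mrc1 was at the floor throughout the calcitriol group, and Lyz2 and Cd53 throughout the naive group. Of 14 tested, 6 rose in calcitriol-treated EAE against naive cord, beside 1.68% of all tested probe sets, and 3 in placebo-treated EAE against naive cord, beside 0.887%. None of the 14 fell, beside 0.32% and 0.0493%. Ctss, a lysosomal protease of antigen-presenting cells, averaged 1590 ± 610 signal units with calcitriol, 1078 ± 196 with placebo and 214 ± 58.2 in naive cord (SD, n = 3 each). Cx3cr1 did not follow, at 442 ± 25.4 units with calcitriol, 422 ± 46.4 with placebo and 448 ± 43.9 in naive cord (SD, n = 3 each). Mean signals of Adgre1 and Fcgr3 were 89.9 and 52.1 units with calcitriol. They were lower with placebo (35.1 and 17.7) than in naive cord (63.2 and 36.8). Calcitriol replicate 8 had both the highest Hmox1 signal and the highest sum. The part of these cells in the Hmox1 difference was not tested, and in a whole tissue a change in the number of cells of a type and in RNA per cell cannot be told apart.

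**Figure D1:**
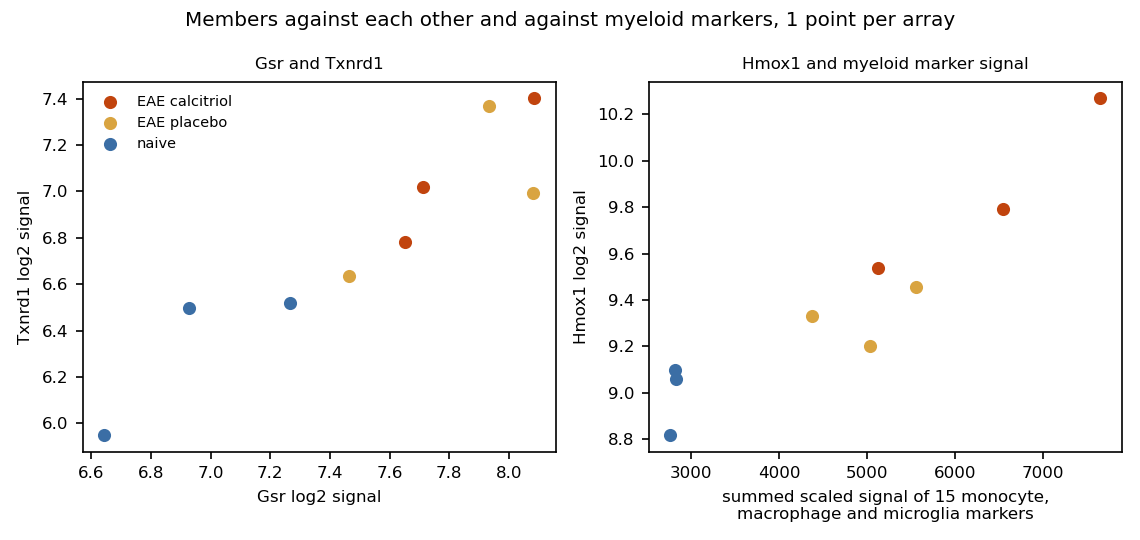
Left, log2 signal of Txnrd1 (vertical axis) against log2 signal of Gsr (horizontal axis). Right, log2 signal of Hmox1 (vertical axis) against the summed scaled signal of 15 monocyte, macrophage and microglia markers (horizontal axis), with 1 point per array and 3 arrays per group in each panel. The 3 naive arrays lie at the lower left of both panels, and the calcitriol and placebo arrays intermingle on the left but are ordered by Hmox1 on the right.

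Among 8169 other genes, each represented by its brightest probe set, those with the profile most like Hmox1 over the 9 arrays were the predicted gene Gm9706, Anxa1 (annexin A1, an anti-inflammatory phospholipid-binding protein) and Cstb (cystatin B, an inhibitor of lysosomal cysteine proteases), each with a Pearson r of 0.96. These 9 points share arrays and scaling, and the coefficients span groups with different levels and are a description only. Gm9706 was below the floor on naive replicates 2 and 3 and near it, at 20.3 units, on naive replicate 4, so its coefficient rests in part on values set by the floor. Calcitriol replicate 8 was the highest array for Gm9706 (177 signal units), Anxa1 (130 units) and Cstb (1286 units).

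Gsr encodes glutathione reductase, which returns oxidised glutathione to its reduced form. It had 201, 209 and 271 signal units on calcitriol replicates 6, 7 and 8, against 271, 245 and 177 on placebo replicates 1, 5 and 10, and 154, 122 and 99.9 on naive replicates 2, 3 and 4. All 6 EAE arrays lay above all 3 naive arrays, and the EAE groups overlapped. Placebo-treated EAE exceeded naive cord by 0.88 ± 0.23 log2 (SE, 95% interval 0.36 to 1.40, 1.84-fold), with a limma adjusted p of 0.172. Calcitriol-treated EAE exceeded naive cord by 0.87 ± 0.23 log2 (SE, 1.83-fold, limma adjusted p = 0.118). Without naive replicate 2, the calcitriol difference was 1.03 log2 and past the threshold (limma adjusted p = 0.0416). Over 19 alternative settings the calcitriol difference passed in 2, with limma adjusted p-values up to 0.424. The placebo difference passed in 1 of 19, with limma adjusted p-values up to 0.519. Calcitriol and placebo differed by -0.01 log2 (95% interval -0.53 to 0.51).

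Txnrd1 encodes the cytosolic thioredoxin reductase, a selenoprotein that keeps thioredoxin reduced. Its signals were 110, 130 and 169 on calcitriol replicates 6, 7 and 8, against 127, 165 and 99.5 on placebo replicates 1, 5 and 10, and 91.8, 90.5 and 61.9 on naive replicates 2, 3 and 4. As for Gsr, every EAE array exceeded every naive array while the EAE groups overlapped. The difference was 0.68 ± 0.28 log2 for placebo (SE, 1.60-fold, limma adjusted p = 0.465) and 0.74 ± 0.28 log2 for calcitriol (SE, 1.68-fold, limma adjusted p = 0.297), both against naive cord. Calcitriol and placebo differed by 0.07 log2 (95% interval -0.55 to 0.69). Like the myeloid sum, the summed signal of 10 neutrophil markers separated EAE from naive arrays, at 4921 to 7719 units with calcitriol, 5003 to 6805 with placebo and 2876 to 3032 in naive cord, where S100a9 was at the floor throughout. Of these markers 4 rose in calcitriol-treated EAE against naive cord (beside 1.68% of all tested probe sets) and 4 in placebo-treated EAE against naive cord (beside 0.887%). Others did not, such as Csf3r, the receptor of granulocyte colony-stimulating factor, which averaged 1186 ± 67.5 signal units with calcitriol, 1182 ± 16.4 with placebo and 1245 ± 101 in naive cord (SD, n = 3 each). The part of either cell type in the Gsr and Txnrd1 values was not tested.

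Gclm encodes the modifier subunit of glutamate-cysteine ligase, the rate-limiting enzyme of glutathione synthesis. It had 104, 110 and 120 signal units on calcitriol arrays, against 101, 130 and 98.0 on placebo replicates 1, 5 and 10, and 70.3, 124 and 103 on naive replicates 2, 3 and 4. All 3 groups overlapped. The difference was 0.17 log2 for placebo against naive cord (95% interval -0.39 to 0.74, limma adjusted p = 0.897) and 0.20 log2 for calcitriol against naive cord (-0.36 to 0.77, limma adjusted p = 0.819). Calcitriol and placebo differed by 0.03 log2 (95% interval -0.54 to 0.59).

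Nqo1, the quinone reductase that spares cells from one-electron redox cycling, was measured by 2 probe sets. The brighter had 104 to 173 signal units on calcitriol arrays, 117 to 181 on placebo arrays and 78.9 to 180 on naive arrays, with naive replicate 2 the lowest. Its differences were 0.05 log2 for placebo against naive cord (95% interval -0.73 to 0.82), -0.03 log2 for calcitriol against placebo (-0.81 to 0.75) and 0.02 log2 for calcitriol against naive cord (-0.76 to 0.80). The dimmer was below the floor on calcitriol replicates 7 and 8 and on naive replicate 3. Its differences were 0.09 log2 for placebo against naive cord, -0.18 log2 for calcitriol against placebo and -0.08 log2 for calcitriol against naive cord, each with a standard error of 0.48.

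The superoxide dismutases varied more between arrays of a group than most probe sets. Sod1, the copper-zinc enzyme of the cytosol, had 610, 863 and 1703 signal units on calcitriol replicates 6, 7 and 8, against 1007, 695 and 685 on placebo replicates 1, 5 and 10, and 1663, 814 and 747 on naive replicates 2, 3 and 4. Calcitriol replicate 8 and naive replicate 2 held the 2 highest values, and the groups overlapped. Its difference was -0.36 log2 for placebo against naive cord (95% interval -1.26 to 0.54, limma adjusted p = 0.851), and 0.01 log2 without naive replicate 2. Calcitriol stood 0.30 log2 above placebo (95% interval -0.60 to 1.20) and differed from naive cord by -0.06 log2 (95% interval -0.96 to 0.84). The summed signal of 10 neuron markers was 5746 to 6393 on calcitriol arrays, 6037 to 8476 on placebo arrays and 8905 to 17276 on naive arrays. This sum was highest on naive replicate 2 but lowest on calcitriol replicate 8, the array with the highest Sod1 signal. The part of neurons in the Sod1 values was not tested.

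Sod2, the manganese enzyme of mitochondria that inflammatory cytokines are known to induce, had 139, 92.2 and 105 signal units on calcitriol replicates 6, 7 and 8, against 32.8, 116 and 78.4 on placebo replicates 1, 5 and 10, and 117, 47.7 and 36.8 on naive replicates 2, 3 and 4. The calcitriol arrays were close together, while placebo and naive arrays each spread more than 3-fold. The calcitriol mean exceeded the naive mean by 0.91 ± 0.53 log2 (SE, limma adjusted p = 0.567) and the placebo mean by 0.72 ± 0.53 log2 (SE, limma adjusted p = 1). Without placebo replicate 1, the lowest array, calcitriol exceeded placebo by 0.21 log2. Placebo-treated EAE stood 0.18 log2 above naive cord (95% interval -1.01 to 1.38, limma adjusted p = 0.955). The residual SD of Sod2 was 0.76 log2 and 10.1% of tested probe sets had a larger one. That of Sod1 was 0.60, against 0.24 for Hmox1 and a median of 0.34 over all tested probe sets.

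Hydrogen peroxide is removed by Gpx1, Cat and Prdx1. Gpx1, the main cytosolic glutathione peroxidase and a selenoprotein, had 269, 295 and 276 signal units on calcitriol replicates 6, 7 and 8, against 202, 258 and 248 on placebo replicates 1, 5 and 10, and 329, 187 and 248 on naive replicates 2, 3 and 4. All calcitriol arrays lay above all placebo arrays, but the difference of 0.25 ± 0.21 log2 (SE, 95% interval -0.21 to 0.72) did not pass (limma adjusted p = 1). Both EAE groups overlapped naive cord, at -0.08 log2 for placebo (limma adjusted p = 0.95) and 0.17 log2 for calcitriol (limma adjusted p = 0.812).

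Cat, the peroxisomal catalase, was measured by 2 probe sets. The brighter had 326 to 411 signal units on calcitriol arrays, 284 to 343 on placebo arrays and 338 to 434 on naive arrays, and its residual SD of 0.17 log2 was the smallest of the members. The differences were -0.25 log2 for placebo against naive cord (95% interval -0.59 to 0.10, limma adjusted p = 0.712), 0.21 log2 for calcitriol against placebo (-0.14 to 0.56, limma adjusted p = 1) and -0.03 log2 for calcitriol against naive cord (-0.38 to 0.31, limma adjusted p = 0.965). The dimmer was below the floor on calcitriol replicates 6 and 8 and on naive replicate 4. Every calcitriol array lay below every placebo array on it, by -0.62 ± 0.53 log2 (SE, limma adjusted p = 1), with values near the floor. Erythrocytes are rich in catalase, and the 6 measured erythroid markers summed to 1867 to 2046 units on calcitriol arrays, 1738 to 1771 on placebo arrays and 1473 to 2422 on naive arrays, with naive replicate 2 the highest in the sum and in both Cat probe sets. Naive replicate 3 had the lowest sum of all arrays, while its brighter Cat signal, 351 units, exceeded every placebo array. The part of erythrocytes in the Cat values was not tested.

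The probe sets shared by Prdx1, a cytosolic peroxiredoxin, and Gm21399 had group means in the same order, highest with calcitriol and lowest in naive cord. The brighter had 972, 754 and 1339 signal units on calcitriol replicates 6, 7 and 8, against 773, 819 and 697 on placebo replicates 1, 5 and 10, and 735, 665 and 541 on naive replicates 2, 3 and 4. Calcitriol arrays lay above naive arrays, by 0.63 ± 0.21 log2 (SE, limma adjusted p = 0.236). The other shared probe set stood at 0.56 ± 0.25 log2 (SE, limma adjusted p = 0.424), with overlapping groups.

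**Figure D2:**
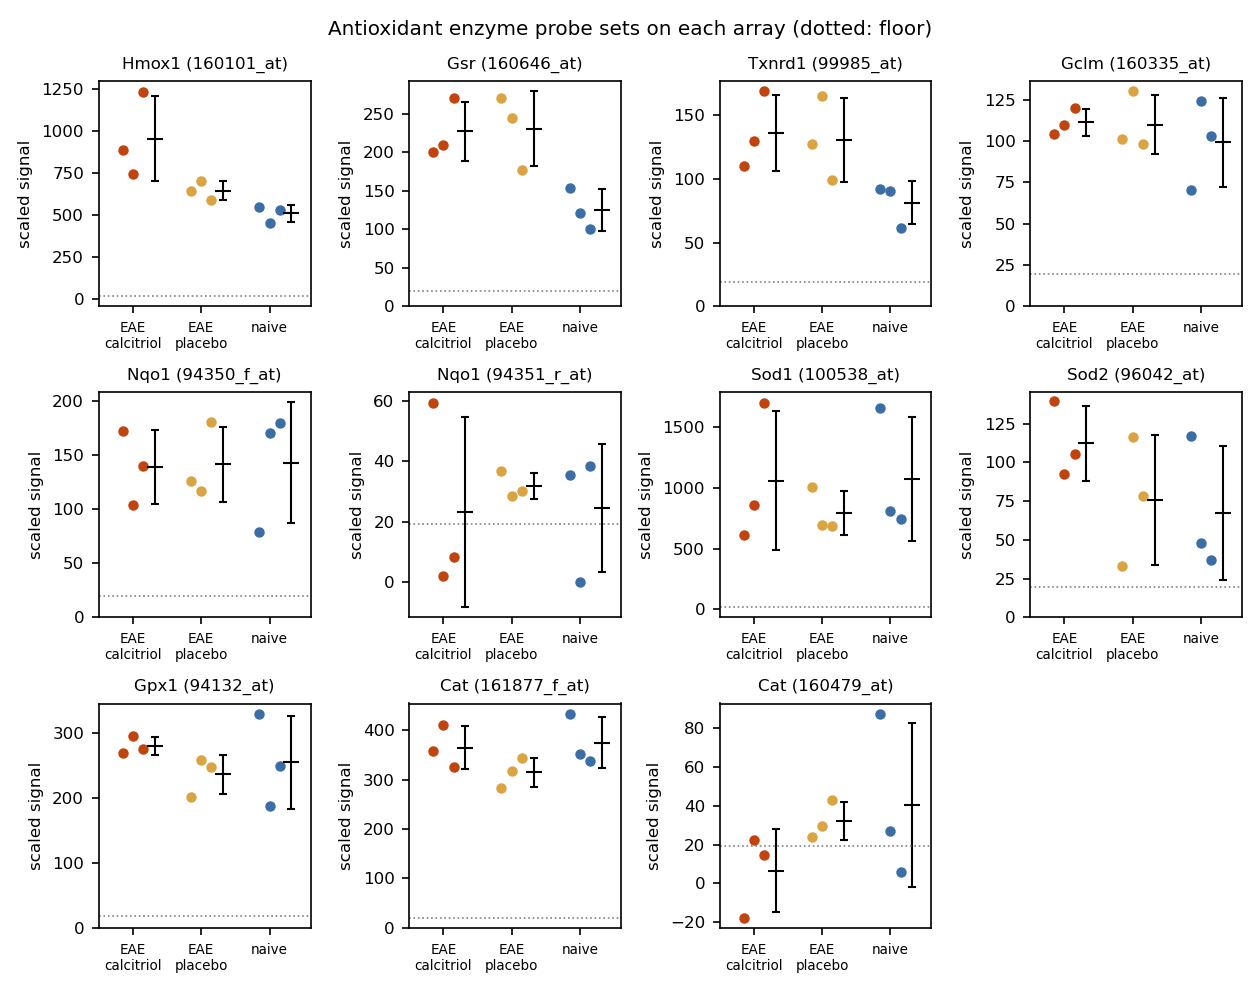
Scaled signal (vertical axes, linear and drawn to a different range in each panel) of each of the 11 member probe sets on the 3 calcitriol, 3 placebo and 3 naive arrays. Points are arrays, black marks are group means with SD, and the dotted line is the floor of 19.3 units. Hmox1 is ordered calcitriol, placebo, naive from high to low without overlap, Gsr and Txnrd1 are lower on all naive arrays, and in the remaining panels the EAE groups overlap naive cord.

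At an unadjusted p under 0.05 in limma, 2, 1 and 3 member probe sets passed in placebo-treated EAE against naive cord, calcitriol against placebo and calcitriol-treated EAE against naive cord, beside 9.33%, 2.58% and 11.9% of all tested. Groups did not overlap, with the EAE group higher, in 3 of 11 against naive cord both for placebo (Hmox1, Gsr and Txnrd1, beside 7.39% of all tested) and for calcitriol (the same 3 genes, beside 8.45%). Both comparisons share the naive arrays. No member was lower without overlap in either, beside 7.13% for placebo and 7.69% for calcitriol. With calcitriol above placebo, 2 of 11 did not overlap (Hmox1 and Gpx1, beside 4.82%), and 1 of 11 with calcitriol below placebo (the dim Cat probe set, beside 5.17%).

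The median difference of the 11 was 0.09 log2 for placebo against naive cord, 0.07 log2 for calcitriol against placebo and 0.17 log2 for calcitriol against naive cord, beside -0.02, 0.00 and -0.02 log2 over all tested probe sets. In each comparison 7 of the 11 lay above 0, beside 47.7%, 49.8% and 48% of all tested. In the comparison of placebo with naive cord, 5.59% of probe sets had a larger difference than Gsr and 8.3% than Txnrd1. In that of calcitriol with placebo, 2.57% had a larger difference than Sod2 and 5.17% than Hmox1.

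**Figure D3:**
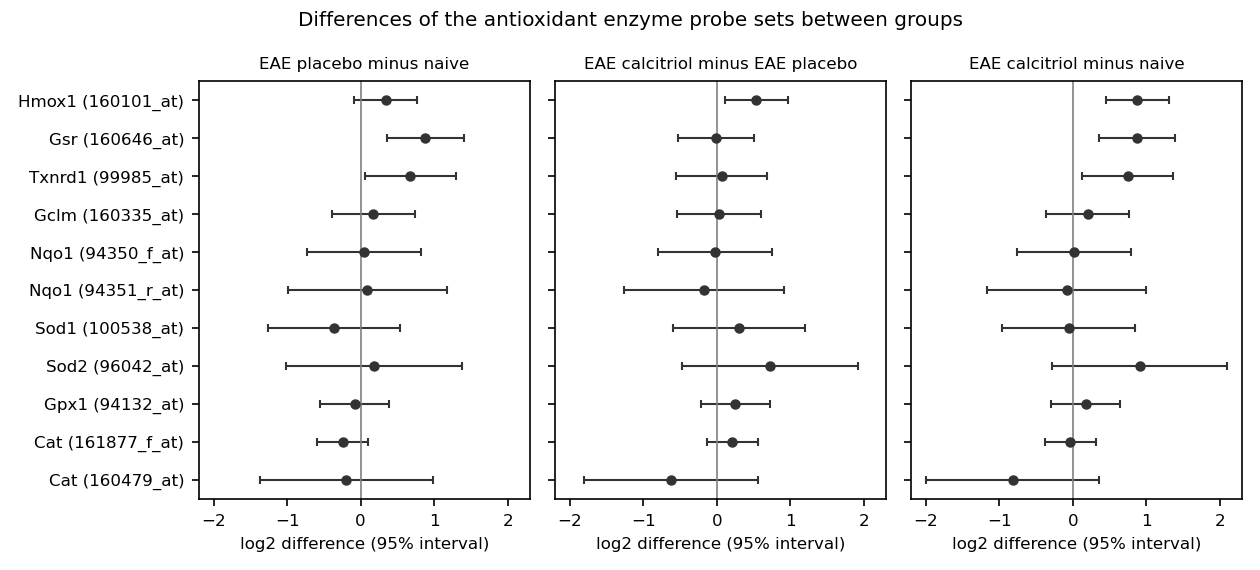
Log2 difference (horizontal axes) of each of the 11 member probe sets in the 3 comparisons, with 95% intervals from the limma fit. The intervals of Gsr and Txnrd1 lie above 0 in both comparisons with naive cord and that of Hmox1 in both comparisons of calcitriol, none of which passed after adjustment over all 12177 tested probe sets.

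Other genes of glutathione, thioredoxin, heme, iron, NADPH and oxidant metabolism were read from a list of 84, of which 66 could be tested with 1 probe set each. None passed in placebo-treated EAE against naive cord or in calcitriol against placebo, and 1 of 66 rose in calcitriol-treated EAE against naive cord, beside 1.68% of all tested probe sets called higher there. At an unadjusted p under 0.05 in limma, 8 of 66 passed in placebo-treated EAE against naive cord (beside 9.33% of all tested), 3 of 66 in calcitriol against placebo (beside 2.58%) and 8 of 66 in calcitriol-treated EAE against naive cord (beside 11.9%). The counts for calcitriol-treated EAE against naive cord were thus close to those over all tested probe sets. Their median differences were 0.04, -0.04 and 0.08 log2 in the 3 comparisons. The gene that rose was Cyba, the p22-phox subunit of the superoxide-producing NADPH oxidase of phagocytes, which is a source of oxidants and not an antioxidant enzyme. It had 764, 425 and 811 signal units on calcitriol replicates 6, 7 and 8, against 430, 679 and 364 on placebo replicates 1, 5 and 10, and 222, 228 and 236 on naive replicates 2, 3 and 4, a difference of 1.49 ± 0.28 log2 between calcitriol and naive cord (SE, limma adjusted p = 0.0283). The call was lost without calcitriol replicate 6 (limma adjusted p = 0.117) or 8 (0.143), naive replicate 3 (0.0987) or 4 (0.0663), or placebo replicate 1 (0.0547), which enters through the shared spread. A further, dimmer Cyba probe set passed against naive cord both with calcitriol (limma adjusted p = 0.00179) and with placebo (limma adjusted p = 0.00388).

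The remaining genes nearest to the threshold did not pass on the probe set that represents each gene. In placebo-treated EAE against naive cord these were Slc3a2, the heavy chain of the cystine transporter, at 0.57 ± 0.14 log2 (SE, limma adjusted p = 0.134), Cyba at 1.05 ± 0.28 log2 (SE, limma adjusted p = 0.179), Mgst1, a microsomal glutathione transferase, at 1.06 ± 0.32 log2 (SE, limma adjusted p = 0.266), and Gstp1, a cytosolic glutathione transferase, at -0.41 ± 0.13 log2 (SE, limma adjusted p = 0.274). Gstp1 had 667, 606 and 686 signal units on placebo replicates 1, 5 and 10, against 956, 817 and 831 on naive replicates 2, 3 and 4. In calcitriol-treated EAE against naive cord, Txn1, thioredoxin itself and the substrate of Txnrd1, stood at 1.70 ± 0.39 log2 (SE, limma adjusted p = 0.0693), Gstp1 at -0.50 log2 (limma adjusted p = 0.1) and Mgst1 at 1.27 log2 (limma adjusted p = 0.102). Txn1 had 664, 513 and 965 signal units on calcitriol replicates 6, 7 and 8, against 439, 621 and 280 on placebo replicates 1, 5 and 10, and 365, 180 and 147 on naive replicates 2, 3 and 4, so calcitriol and naive arrays did not overlap.

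Between calcitriol and placebo the 4 genes with the smallest p did not pass either. Pgd, which makes NADPH in the pentose phosphate pathway, had 489, 437 and 473 signal units on calcitriol replicates 6, 7 and 8, against 371, 349 and 339 on placebo replicates 1, 5 and 10 (0.40 ± 0.12 log2, SE, limma adjusted p = 1). Slc7a11, the light chain of the cystine transporter, had 41.3, 41.3 and 40.8 units on calcitriol replicates 6, 7 and 8, against 6.99, 22.3 and 23.8 on placebo replicates 1, 5 and 10, close to or below the floor (0.92 ± 0.33 log2, SE, limma adjusted p = 1). Gss, glutathione synthetase, stood at 0.33 ± 0.13 log2 (SE, limma adjusted p = 1), while a further Gss probe set gave -0.04 log2, and Gsta4, a glutathione transferase of lipid aldehydes, at -0.96 ± 0.45 log2 (SE, limma adjusted p = 1), with calcitriol replicate 8 below the floor.

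By role, 6 of 7 oxidant-producing enzymes lay above 0 in placebo-treated EAE against naive cord (median 0.44 log2), as did 6 of 7 thioredoxin and glutaredoxin genes (median 0.14 log2) and 6 of 7 regulators (median 0.03 log2), beside 47.7% of all tested probe sets. The oxidant-producing gene below 0 against naive cord was Cybb, both for placebo (-0.01 log2) and for calcitriol (-0.16 log2). In calcitriol-treated EAE against naive cord, 6 of 7 oxidant-producing enzymes (median 0.33 log2), 7 of 7 thioredoxin and glutaredoxin genes (median 0.24 log2) and 4 of 7 regulators (median 0.09 log2) lay above 0, beside 48%. Txn2 lay above 0 in both comparisons through an exact 0 on naive replicate 2, raised to the floor. Its other naive signals, 651 and 620 units, exceeded every EAE array (476 to 593 units with calcitriol, 530 to 607 with placebo). Of 16 glutathione S-transferases, 4 lay above 0 and 12 below in calcitriol-treated EAE against naive cord, beside 48% of all tested above 0. Their median was -0.19 log2 and none was called, beside 2% of all tested probe sets. Gstm3 lay above 0 there through an exact 0 on naive replicate 2, raised to the floor. Its signals on naive replicates 3 and 4, 830 and 811 units, exceeded every calcitriol array (729 to 780 units). A further Gstm3 probe set gave -0.26 log2 in this comparison. Nfe2l2, which encodes NRF2, stood at 0.29 log2 for placebo against naive cord (limma adjusted p = 0.774), 0.21 log2 for calcitriol against placebo (limma adjusted p = 1) and 0.50 log2 for calcitriol against naive cord (limma adjusted p = 0.436). Keap1, the adaptor that marks NRF2 for degradation, exceeded the floor on 1 array and was not tested.

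**Figure D4:**
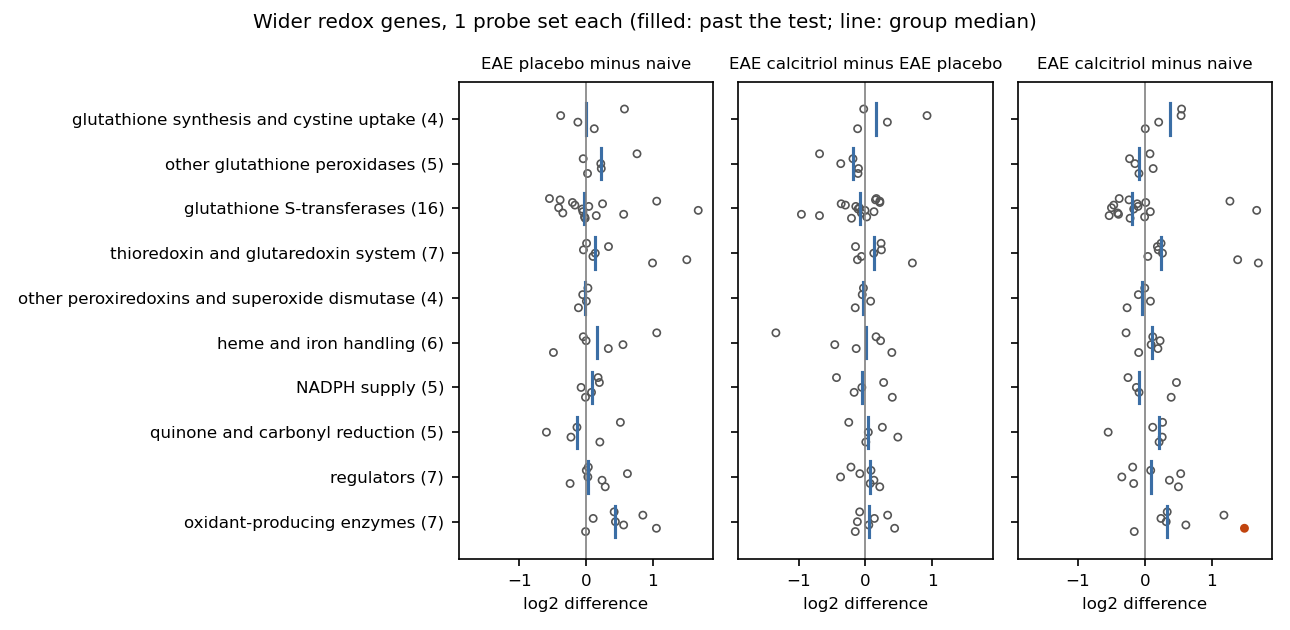
Log2 difference (horizontal axes) of 66 other redox genes in the 3 comparisons, grouped by role with the number measured in parentheses. Circles are genes, filled where they passed the test, and the blue lines are group medians. Cyba in calcitriol-treated EAE against naive cord is the single filled circle, and group medians lie between -0.19 and 0.44 log2.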

How the data were processed

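The deposited table holds linear intensity values of 12488 probe sets on 9 arrays. The software and scaling behind the authors' intensity values are not given in the sources used here. Among member values 0 were exactly 0, and 6 lay at or below the floor.

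Each array was scaled to the same mean, trimmed by 2% at either end. Values under a floor of 10% of that mean were raised to the floor before log2 was taken. Without the 66 controls, 12177 probe sets above the floor on at least 3 arrays were tested with limma 3.58.1 (R 4.3.3, empirical Bayes with intensity trend, 6 residual degrees of freedom), with Benjamini-Hochberg adjustment over all of them within each comparison and a threshold of 0.05. The script was tested on simulated data. Symbols came from the platform annotation: 10855 probe sets had 1, 396 several and 1237 none, and 0 changed on update through RefSeq. A gene was represented by its probe set of highest mean. Figures used Python 3.11.15 and matplotlib 3.10.9.

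Named genes were all members, of the wider list those past the threshold filled to 4 by unadjusted p, and, since no member passed, the 3 genes most like Hmox1. Members and lists were chosen with earlier results of these data known. Alternatives were other scalings, floors, filters, array weights, 2 groups only, no trend, exact zeros as missing, and each array left out.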

Additional observations from a re-analysis of the deposited data

How the results depend on the processing

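No paired analysis was possible because the groups share no replicate numbers. Of the 11 member probe sets, the number past the limma threshold stayed at 0 in calcitriol against placebo under every alternative. In placebo-treated EAE against naive cord it was 1 with array weights. In calcitriol-treated EAE against naive cord it was 1 with values as deposited, quantile normalization, a floor of 20% or exact zeros as missing, 2 with array weights, and 0 to 2 when 1 array was left out (1 without calcitriol replicate 7, 2 without naive replicate 2). The wider list had 3 with array weights in placebo-treated EAE against naive cord. In calcitriol-treated EAE against naive cord, against 1, it had 6 with array weights, 2 with zeros missing, 0 with 2 groups only or no trend, and 0 to 2 with 1 array left out. Array weights gave naive replicate 3 a weight of 4.38, against 0.26 for naive replicate 2. Over all probe sets, the 114 calls of placebo-treated EAE against naive cord became 639 with array weights, 61 with 2 groups only and 20 to 176 with 1 array left out, and the 244 of calcitriol-treated EAE against naive cord became 1014, 118 and 75 to 392. Calcitriol against placebo gave 0 to 1 with 1 array left out. Values as deposited moved the median of all probe sets to 0.11 log2 in placebo-treated EAE against naive cord, and 94.6% of calls in calcitriol-treated EAE against naive cord were then higher, against 84%. Some small member differences changed sign. For placebo against naive cord they were -0.11 (Gclm), 0.14 (dimmer Cat), 0.25 (Gpx1) and -0.27 (brighter Nqo1) log2 with array weights, 0.14 (dimmer Cat) with a floor of 5%, 0.0505 (Gpx1) as deposited and -0.11 (dimmer Nqo1) with quantile normalization. For calcitriol against naive cord they were 0.30 (Sod1), -0.081 (Gclm), 0.0622 (brighter Cat), -0.38 (brighter Nqo1) and 0.16 (dimmer Nqo1) with array weights, 0.0593 (Sod1) and 0.0833 (brighter Cat) as deposited, and -0.0301 (brighter Nqo1) with quantile normalization, which gave 0.00084 for Gsr in calcitriol against placebo. With 1 array left out, placebo against naive cord ran from -0.57 to 0.0054 for Sod1, -0.0543 to 0.35 for Gclm, -0.64 to 0.45 for dimmer Cat, -0.29 to 0.12 for Gpx1, -0.34 to 0.26 and -0.22 to 0.28 for the brighter and the dimmer Nqo1 probe set, and -0.22 to 0.70 for Sod2. Calcitriol against placebo ran from -0.11 to 0.63 for Sod1, -0.0485 to 0.16 for Gclm, -0.19 to 0.12 for Gsr, -0.20 to 0.16 and -0.72 to 0.0945 for Nqo1, and -0.11 to 0.25 for Txnrd1. Calcitriol against naive cord ran from -0.47 to 0.31 for Sod1, -0.0265 to 0.38 for Gclm, -0.12 to 0.0767 for brighter Cat, -0.0323 to 0.38 for Gpx1, and -0.36 to 0.23 and -0.62 to 0.19 for Nqo1. The causes were not tested. Gsr passed with array weights in both comparisons with naive cord (limma adjusted p = 0.0128 with calcitriol and 0.0173 with placebo). The median half-width of a 95% interval was 0.64 log2.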

Other observations

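Probe sets of 2 genes of the wider redox list differed in how far they moved, and this pair was picked with the values in view. The dimmer probe set of Cyba had 359, 327 and 722 signal units on calcitriol replicates 6, 7 and 8, 277, 366 and 356 on placebo replicates 1, 5 and 10, and 58.5, 38.5 and 44.2 on naive replicates 2, 3 and 4. It rose by 3.24 log2 in calcitriol-treated EAE (limma adjusted p = 0.00179) and by 2.83 log2 in placebo-treated EAE (limma adjusted p = 0.00388), both against naive cord. It passed in all 19 alternatives in each comparison, with limma adjusted p-values up to 0.0118 and 0.0346. The brighter probe set gave 1.49 and 1.05 log2.

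Bach1 encodes a repressor of Hmox1 transcription. Its dimmer probe set had 50.1, 76.5 and 99.2 signal units on calcitriol replicates 6, 7 and 8, 70.2, 50.3 and 62.5 on placebo replicates 1, 5 and 10, and 27.3, 16.3 and a value below 0 on naive replicates 2, 3 and 4. It rose by 1.74 log2 in calcitriol-treated EAE against naive cord (limma adjusted p = 0.0295) and passed in 9 of 19 alternatives, with limma adjusted p-values from 0.00181 to 0.149. With naive replicates 3 and 4 below the floor, the size is set by the floor: it was 0.91 log2 with a floor of 20% and 2.16 log2 with a floor of 5%. The brighter probe set stood at 0.37 log2 (limma adjusted p = 0.874).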
